A study of Mus musculus with 9 samples.

Results

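The Hippo pathway genes described here are 10 mouse genes: the angiomotin scaffolds Amot, Amotl1 and Amotl2, the kinase Lats2, the coactivators Yap1 and Wwtr1 (which encodes TAZ), the DNA-binding partners Tead1 and Tead2, and the secreted target genes Ccn1 (Cyr61) and Ccn2 (Ctgf). They were chosen by symbol. A probe set belonged to a gene when the platform annotation named that gene alone, which gave 26 probe sets for the 10 genes, of 18193 genes so represented on the array. Each gene was read from its brightest probe set, and the others served as a check. A further probe set, annotated to both Xpo4 and Lats2, was left out.

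Expression was measured on 9 Affymetrix arrays of mouse embryonic stem (ES) cells. The differentiating cells lay in 2 arms that share the same line and base medium, MEM alpha with serum and no leukemia inhibitory factor (LIF). The Dox- arm had no doxycycline (Dox), the Dox+ arm had 1 µg/ml, and each was sampled at 0.5, 1.5, 2.5 and 3.5 days (D0.5 to D3.5). The remaining array was of undifferentiated cells, kept with LIF and 1 µg/ml doxycycline. The cells carry a protein kinase A (PKA) that is constitutively active and under doxycycline control; which medium switches it on is not stated in the labels, so the arms are named here by medium. The labels used here do not name the line or say whether it was 1 clone. Each group had 1 array, so the media were compared with the days taken as repeats and the days with the media taken as repeats, and p-values measure only the spread between these arrays, which may be technical.

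In the Hippo pathway, the MST kinases act through the LATS kinases, which phosphorylate YAP and TAZ. Phosphorylated YAP and TAZ are held in the cytoplasm or degraded. Without that phosphorylation they enter the nucleus and bind TEAD proteins at target genes. Angiomotins are scaffolds of tight junctions and actin filaments that bind YAP and can activate LATS, so they hold YAP outside the nucleus. In the mouse blastocyst this switch separates the outer cells, where nuclear YAP and TEAD4 support trophectoderm, from the inner cell mass, where angiomotins and LATS keep YAP out. PKA is known, chiefly from other mammalian cell types, to act on LATS and so on YAP. All of these events occur on proteins, whereas the arrays measured RNA.

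Intensities are the deposited Affymetrix signals, scaled so that the trimmed mean of all probe sets was 100 on every array; a signal of one probe set cannot be set against that of another. Of the 18193 genes, 8716 reached a signal of 50 on at least 2 arrays and were tested, all 10 genes among them. Lats2 passed through 2 Dox- arrays and 1 Dox+ array, Ccn1 through 3 Dox- and 2 Dox+ arrays, and Amot through 3 of each. The undifferentiated array had a signal of 2834 for Zfp42, a gene of naive pluripotency, above all 8 other arrays. Mixl1, a gene of the primitive streak, read 10.5 on it. Mixl1 did not set that array apart, since the D0.5 arrays read 3.9 in Dox+ and 9.8 in Dox- cells. Neither did Pou5f1 at 2263 and Nanog at 1630, since each was higher on at least 1 array of differentiating cells. The labels of day and medium were not checked. Differences are on the scale of log2(signal + 16), which understates those of dim genes.

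Promoters are shown for Amot, whose RNA changed most, and for 3 genes that carry the letters bound by TEAD proteins. RefSeq (build GRCm38.p6) gave the 250 bases before the start of 8 of the 10 genes, in 10 promoters; Ccn2 and Tead1 are named only. The letters GGAATG, or CATTCC on the other strand, were searched as a TEAD-type motif, and TGACG or CGTCA as the core of the cyclic AMP response element, the DNA site bound by CREB, a factor that PKA phosphorylates. The TEAD-type letters stood in Amotl2, Yap1, Wwtr1 and Ccn1, 4 of 8 genes and 5 of 10 promoters. Both promoters of Wwtr1 count there, and they share the same site. Of 32851 RefSeq promoters of the same length, 12.6% hold the TEAD-type letters. The CREB-type letters stood in Amotl1, Lats2 and Ccn1, in 3 of 10 promoters, against 17.8% of all promoters. Of the Lats2 promoters only the first holds them. No match of one motif overlapped a match of the other. Capitals mark both motifs, and each line runs 5′ to 3′ on the strand of the gene and ends at the base before the start.
Ccn1, chr3:145649986-145650235, minus strand: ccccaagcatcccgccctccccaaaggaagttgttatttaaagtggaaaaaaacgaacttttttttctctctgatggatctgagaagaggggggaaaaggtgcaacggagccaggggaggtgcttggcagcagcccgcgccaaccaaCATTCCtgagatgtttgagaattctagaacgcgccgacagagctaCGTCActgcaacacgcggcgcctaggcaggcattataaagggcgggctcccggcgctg
Amotl2, chr9:102717554-102717803, plus strand: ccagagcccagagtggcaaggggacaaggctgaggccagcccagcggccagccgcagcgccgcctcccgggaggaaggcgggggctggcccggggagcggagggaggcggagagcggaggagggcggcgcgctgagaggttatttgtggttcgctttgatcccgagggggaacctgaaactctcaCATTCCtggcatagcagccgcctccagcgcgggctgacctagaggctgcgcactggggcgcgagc
Wwtr1, chr3:57575911-57576160, minus strand: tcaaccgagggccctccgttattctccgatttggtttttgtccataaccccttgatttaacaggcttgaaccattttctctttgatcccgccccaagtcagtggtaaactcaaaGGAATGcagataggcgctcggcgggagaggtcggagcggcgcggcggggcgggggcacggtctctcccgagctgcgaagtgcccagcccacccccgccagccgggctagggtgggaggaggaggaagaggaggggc
Amot, chrX:145487640-145487889, minus strand: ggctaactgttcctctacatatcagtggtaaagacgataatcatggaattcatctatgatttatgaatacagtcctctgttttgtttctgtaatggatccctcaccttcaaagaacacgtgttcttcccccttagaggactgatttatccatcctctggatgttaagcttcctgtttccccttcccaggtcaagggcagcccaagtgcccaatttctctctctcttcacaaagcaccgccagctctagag
Counted back from -1 at the base before the start, the TEAD-type letters lie at -103 to -98 in Ccn1, -65 to -60 in Amotl2 and -136 to -131 in Wwtr1, and the CREB-type letters of Ccn1 at -58 to -54. The second RefSeq start of Wwtr1 holds the same letters at -170 to -165. In the promoter of Amot neither motif was found. These are matches of letters only.

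Amot, the founding angiomotin, changed the most of the 10 genes. Its signals in Dox- cells were 41.5, 667, 2179 and 4226 on D0.5, D1.5, D2.5 and D3.5, against 47.3, 149.9, 288 and 809 in Dox+ cells and 38.6 in undifferentiated cells. The arms were near each other and near the undifferentiated array on D0.5, and from D1.5 each Dox- array was above the Dox+ array of its day; the D1.5 array of Dox- cells already read close to the D3.5 array of Dox+ cells. The signal ratio of Dox- over Dox+ cells was 4.45 at D1.5, 7.56 at D2.5 and 5.23 at D3.5. The other probe sets of Amot stayed at or below 30.1 on all arrays, and both were highest on the D3.5 array of Dox- cells. On D1.5 they read 10 and 5.9 in Dox- cells, against 7.9 and 7 in Dox+ cells. The first of them was lower in Dox- cells on D2.5, at 12.3 against 17.3. They were too dim to check the difference from D1.5 on, which rests on the brightest probe set alone.

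**Figure D1:**
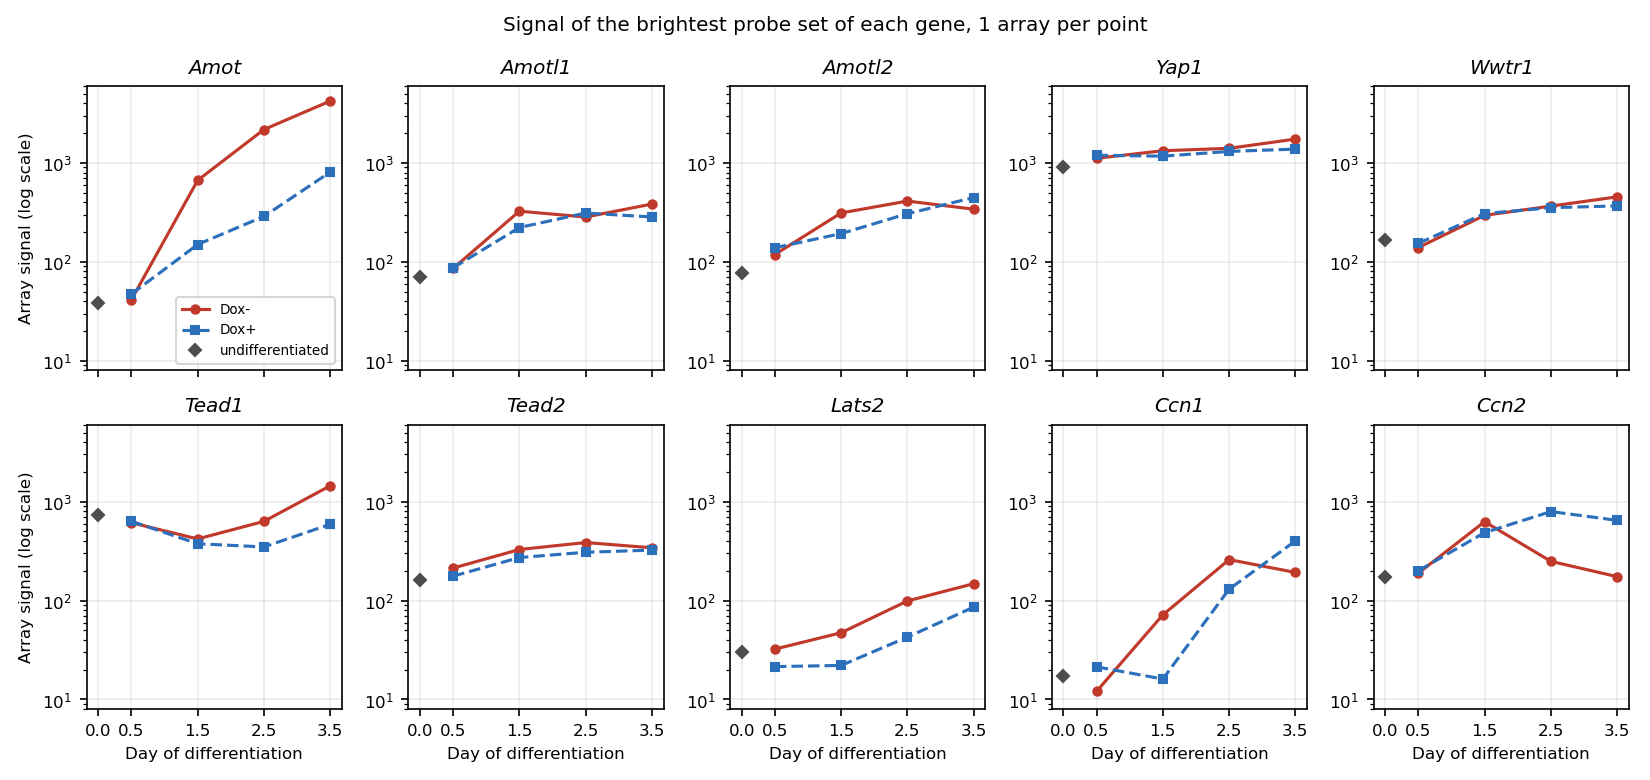
Signal (log axis, deposited units) of the brightest probe set of each of the 10 genes against day of differentiation, with Dox- cells as red circles, Dox+ cells as blue squares and undifferentiated cells as a grey diamond at day 0; each point is 1 array. Amot reached 4226 in Dox- cells and 809 in Dox+ cells on D3.5, and Ccn2 lay the other way, with 175 and 648.

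Amotl1 and Amotl2, the paralogs of Amot, were higher on later days in both media. Amotl1 had signals of 85.9, 326, 284 and 384 in Dox- cells, against 87.1, 223, 312 and 285 in Dox+ cells and 70.1 in undifferentiated cells. Amotl2 read 119, 312, 412 and 341 in Dox- cells, against 139, 193, 307 and 447 in Dox+ cells and 77.1 in undifferentiated cells. By the brightest probe set the arms crossed for both genes: Dox- cells were higher on 2 days and lower on 2. A dimmer probe set of Amotl1, which reached 127, followed the brightest over the 9 arrays (r = 0.96) but did not show the crossing. It was higher in Dox- cells on each day, with 27.5 against 23.7 on D0.5 and 100.7 against 81.6 on D2.5. All 3 angiomotins were at their lowest on the undifferentiated array.

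Lats2, the kinase that phosphorylates YAP and TAZ, was dim. Its signals were 32.3, 47.3, 99.1 and 148 in Dox- cells, against 21.5, 22.1, 42.7 and 85.9 in Dox+ cells and 30.4 in undifferentiated cells. Dox- cells were higher on all 4 days. Its next probe set, which reached 47.9, followed the same course (r = 0.97 over the 9 arrays).

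Yap1 moved least of the 10 genes, within a span of 0.93 on the log2 scale. It read 1116, 1329, 1407 and 1743 in Dox- cells, against 1197, 1171, 1309 and 1381 in Dox+ cells and 907 in undifferentiated cells. Wwtr1 read 139.6, 295, 367 and 454 in Dox- cells, against 154, 308, 353 and 368 in Dox+ cells and 166 in undifferentiated cells. For both coactivators the media lay close together on each day, and by the brightest probe set the D3.5 array of Dox- cells was the highest of all. The dimmer probe sets of Wwtr1 were instead highest on the D3.5 array of Dox+ cells, at 79.3 and 76.8, against 73 and 74.2 in Dox- cells. The next probe set of Yap1 reached 109 and that of Wwtr1 79.3; on the last days their differences of media were 0.39 and -0.12, small like those of the brightest, 0.22 and 0.17.

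Tead1, a DNA-binding partner of YAP, had another course from the rest: its signal was low in mid-course and high again at the end. It read 613, 420, 632 and 1447 in Dox- cells, against 633, 376, 349 and 590 in Dox+ cells and 738 in undifferentiated cells. On the D1.5 arrays both media were below the undifferentiated array, and only the D3.5 array of Dox- cells was above it. A second probe set, which reached 44.4, had a difference of media of 0.98 on the last days, against 1.05 for the brightest. The signal ratio of Dox- over Dox+ cells was 1.81 at D2.5 and 2.45 at D3.5. Tead2, a TEAD gene active in the early mouse embryo, read 213, 328, 386 and 342 in Dox- cells, against 177, 272, 308 and 324 in Dox+ cells and 162 in undifferentiated cells, and was higher in Dox- cells on all 4 days. Tead3 reached at most 56.8 and Tead4 at most 14.2, and neither was tested.

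Ccn1 and Ccn2 encode secreted matricellular proteins and are the targets most often read as a measure of YAP and TAZ activity. Ccn2 had signals of 189, 628, 249 and 175 in Dox- cells, against 200.4, 487, 794 and 648 in Dox+ cells and 172 in undifferentiated cells. The arrays of Dox- cells peaked on D1.5 and were back near the undifferentiated level by D3.5, whereas those of Dox+ cells peaked on D2.5 and stayed high. The signal ratio of Dox- over Dox+ cells was 0.314 at D2.5 and 0.270 at D3.5. Ccn1, whose promoter is printed above, read 12.1, 71.7, 259.5 and 193 in Dox- cells, against 21.4, 16.1, 130.4 and 401 in Dox+ cells and 17.1 in undifferentiated cells. The ratio of Dox- over Dox+ cells was 1.99 at D2.5 and 0.480 at D3.5, so the order of the media turned between those days. Its 3 other probe sets followed the brightest one (r from 0.95 to 0.97 over the 9 arrays).

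By single days, which have 1 array a medium and no test, a gene was counted when its signals, after adding 16, differed at least 2-fold between the media. On D0.5 none of the 10 genes was, and 0.115% of all 8716 genes were. On D1.5 Amot and Ccn1 were higher in Dox- cells, by 2.04 and 1.45 on the log2 scale, beside 1.33% of all genes. On D2.5 Amot was higher by 2.85, beside 3.41% of all genes, and Ccn2 was at -1.61, beside 4.45% of all genes lower. On D3.5 Amot and Tead1 were higher by 2.36 and 1.27, beside 4.13% of all genes, and Ccn2 was at -1.80, beside 4.80% lower. Lats2 and Ccn1 lay just short of that limit on D2.5, at 0.97 and 0.91, and Ccn1 on D3.5, at -0.999. The rank of Amot among all 8716 genes, counted from the highest, was 18 for D1.5, then 51 for D2.5, then 62 for D3.5.

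**Figure D2:**
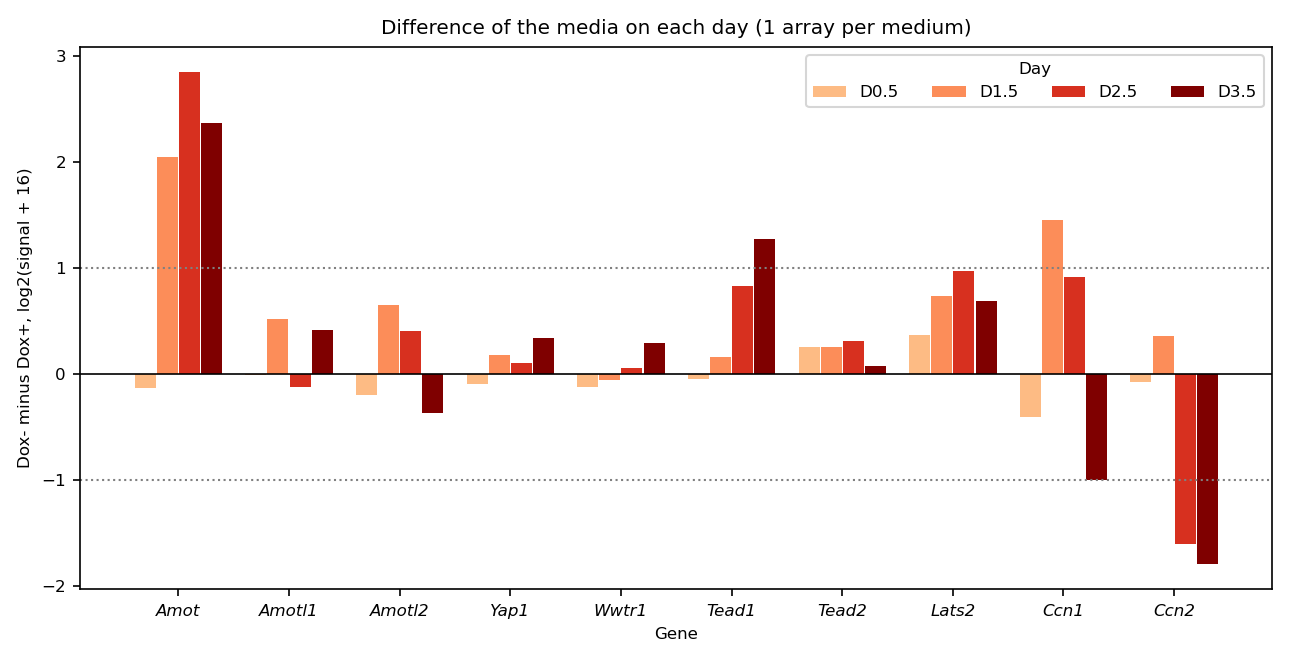
Log2 difference of Dox- minus Dox+ cells (log2(signal + 16), 1 array each) for the 10 genes, with 1 bar per day from D0.5 to D3.5. Amot lies at 2.04, 2.85 and 2.36 from D1.5 on, Ccn2 at -1.61 and -1.80 on the last days, and Ccn1 changes sign on D3.5.

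The comparison of media at the end of the course asked whether the arms differed on D2.5 and D3.5 together. Amot and Tead1 were higher in Dox- cells and Ccn2 was lower. The difference of Dox- minus Dox+ cells was 2.61 ± 0.56 for Amot, 1.05 ± 0.14 for Tead1 and -1.70 ± 0.15 for Ccn2 (log2, SE, n = 2 days; limma, Benjamini-Hochberg adjusted p = 0.0386, 0.00863 and 0.00287). The SE also takes in the differences of media on D0.5 and D1.5, so it is not a spread over the last days alone. The difference of 2.04 for Amot on D1.5 widened its SE. Of all 8716 genes, 2.83% were called higher and 4.35% lower at an adjusted p under 0.05. The remaining 7 genes were not called. Among them Lats2 had a difference of 0.83 ± 0.28, with a limma adjusted p of 0.128, and Yap1 one of 0.22 ± 0.11, with 0.284. Ccn1 had -0.04 ± 0.56, which joins opposite signs on the 2 days. The median over the 10 genes was 0.18, and that over all tested genes was 0.01. This fit was chosen with these values in view, so its p-values describe these arrays; the call of Amot was lost without the filter on low signals (adjusted p = 0.0630) and without D0.5, D2.5 or D3.5 (0.0978, 0.15 and 0.124), and that of Tead1 without D3.5 (0.0531).

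Over all 4 days together, limma called 0 of the 10 genes and 0% of all genes, with 1026 genes at an unadjusted p under 0.05; no other tool was run. Amot had a difference of 1.78 ± 0.47 and Lats2 of 0.69 ± 0.16, both with an adjusted p of 0.416. A steady change of the difference of media with day was also called for 0 of the 10 genes and 0% of all genes, with 736 at an unadjusted p under 0.05. The fitted slope of the difference was 0.83 ± 0.33 per day for Amot, with a limma adjusted p of 0.579, and -0.71 ± 0.38 per day for Ccn2, with an adjusted p of 0.644.

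**Figure D3:**
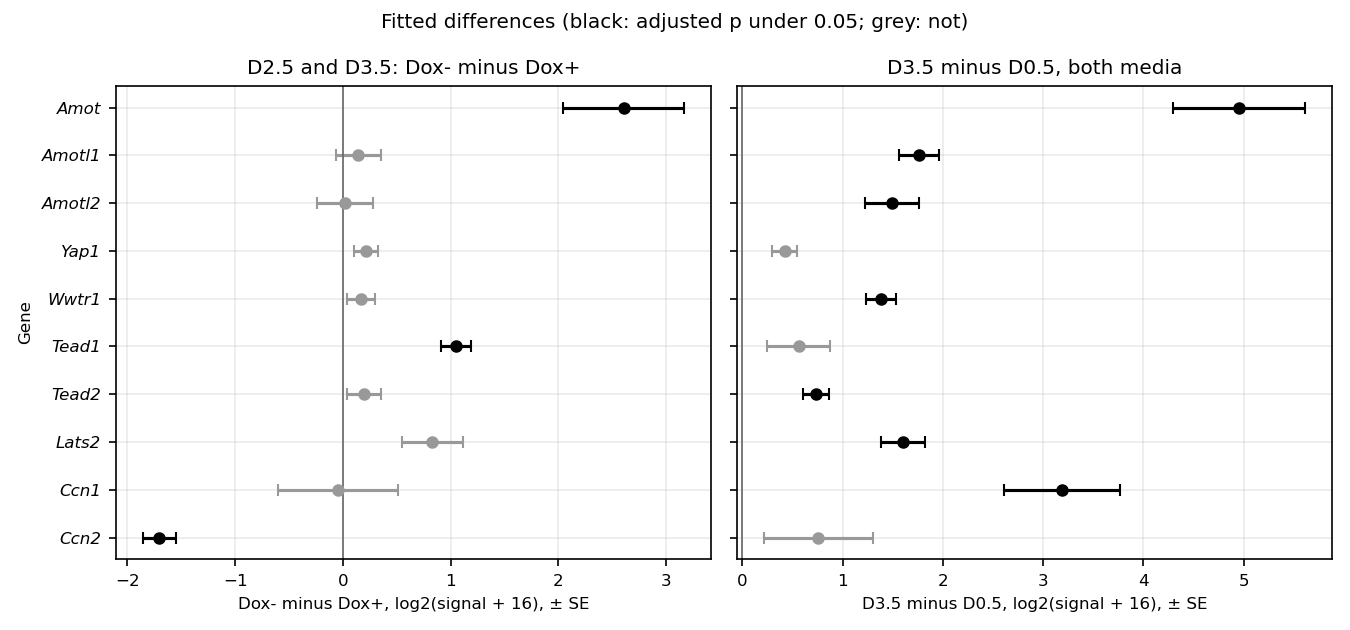
Fitted log2 differences (± SE, from limma) of the 10 genes in the comparisons of media and of days; black symbols have an adjusted p under 0.05. For the last days these are Amot at 2.61, Tead1 at 1.05 and Ccn2 at -1.70, and for D3.5 minus D0.5 the black symbols lie between 0.73 (Tead2) and 4.95 (Amot).

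The comparison of days, D3.5 minus D0.5 with the medium as a block, asked what differentiation did in both arms. Most of the 10 genes rose: 7 were called higher and 0 lower, beside 11.8% of all genes higher and 10.2% lower. Of these, Amot, Ccn1 and Lats2 were under 50 on both D0.5 arrays and on the undifferentiated array. They passed the filter through later arrays alone, so their calls give no support to that count. Amot rose by 4.95 ± 0.66 on the log2 scale (SE, n = 2 media; limma adjusted p = 0.00738), from D0.5 signals under 50 in both media. Ccn1 rose by 3.18 ± 0.58 (0.0156), Amotl1 by 1.76 ± 0.20 (0.00514), Lats2 by 1.60 ± 0.22 (0.00803), Amotl2 by 1.49 ± 0.27 (0.0152), Wwtr1 by 1.39 ± 0.15 (0.00479) and Tead2 by 0.73 ± 0.13 (0.0151), with the limma adjusted p in parentheses. Yap1 was at 0.42 ± 0.12 (limma adjusted p = 0.0573), Tead1 at 0.56 ± 0.32 (0.244) and Ccn2 at 0.75 ± 0.54 (0.346), and these 3 were not called. The values of Tead1 and Ccn2 join opposite signs in the media. Tead1 was at 1.22 in Dox- cells and -0.10 in Dox+ cells, and Ccn2 at -0.11 and 1.62. The median over the 10 genes was 1.44, against 0.02 over all tested genes. Yap1 passed under quantile normalization, with 0.53 and an adjusted p of 0.0413.

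The genes upstream of YAP were read from a list of 28 kinases, adaptors and polarity proteins, of which 27 had a probe set and 24 were tested. On D2.5 and D3.5, 3 were higher in Dox- cells and 2 lower, with a median of 0.11, beside 2.83% of all genes higher and 4.35% lower and a median of 0.01. Frmd6, a FERM-domain protein upstream of the kinases, had signals of 42.3, 52.9, 167 and 656 in Dox- cells, against 45.4, 51.6, 43.5 and 77.7 in Dox+ cells. It was higher by 2.23 ± 0.27 (limma adjusted p = 0.00714), and the arms parted from D2.5. Map4k4, a kinase that acts beside MST, was higher by 0.62 ± 0.14 (0.0460), and Mob1a, an activator of LATS, by 0.55 ± 0.13 (0.0474). Crb3, an apical polarity protein, read 12.8, 138.8, 41.3 and 22.9 in Dox- cells, against 10.7, 63.8, 224 and 225 in Dox+ cells. Its difference was -2.35 ± 0.32 (limma adjusted p = 0.00912), and, as with Ccn2, the arrays of Dox- cells were highest on D1.5 and low afterwards. Ajuba, a LIM protein that restrains LATS, was at -0.84 ± 0.19 (0.0475). Next in size among the genes not called were Dlg5, a polarity scaffold, at 0.87 and Taok3, a kinase upstream of MST, at -0.76. Map4k4, Mob1a and Ajuba lost their calls in several alternatives, among them each without D3.5, where Crb3 also missed the threshold (0.0576). Between D3.5 and D0.5, 4 of the 24 genes rose and 0 fell, beside 11.8% of all genes higher and 10.2% lower. Patj, a partner of the Crumbs complex, led them at 2.16 ± 0.25. It passed the filter through arrays after D0.5 alone, so its call gives no support to the count. Map4k4, Ptpn14, a phosphatase that binds YAP, and Mpp5, another Crumbs partner, were the others, and each lost its call in at least 1 alternative.

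Of 6 further cofactors of YAP and TAZ, only Vgll4, which competes with YAP for TEAD, was tested; it was at 1.18 ± 0.30 on the last days (limma adjusted p = 0.0613) and rose by 1.54 ± 0.36 in the comparison of D3.5 with D0.5 (0.0318). Vgll4 was under 50 on both D0.5 arrays and passed the filter through later arrays alone. Of 22 further target genes, 10 were tested. Tgfb2, a secreted growth factor, was higher in Dox- cells on D2.5 and D3.5 by 2.90 ± 0.55 (limma adjusted p = 0.0261), with signals of 64.7 and 763 in Dox- cells against 11 and 25.8 in Dox+ cells. It passed the filter through those 2 Dox- arrays alone and was under 50 on every Dox+ array, so its call gives no support to a count of the list. Nuak2, a kinase of the AMPK family, was at -1.17 ± 0.19 (limma adjusted p = 0.0156), with 25.3 and 25.8 in Dox- cells against 87.0 and 68.3 in Dox+ cells. The other targets furthest from 0 were not called: Tagln was at 0.50, Igfbp3 at 0.46, F3 (tissue factor) at -0.40 and Dock5 at -0.29. The call of Tgfb2 was lost without D0.5 or D3.5 and with a pseudocount of 64, and that of Nuak2 without D0.5 or D2.5. Between D3.5 and D0.5, 3 of the 10 rose and 0 fell, beside the same 11.8% and 10.2% of all genes. Tagln, a smooth muscle actin-binding protein, was at 4.55 and Igfbp3, a binding protein of insulin-like growth factors, at 3.01. Ptpn14, counted in both lists, was the third. Tagln passed the filter through arrays after D0.5 alone, so its call gives no support to the count.

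**Figure D4:**
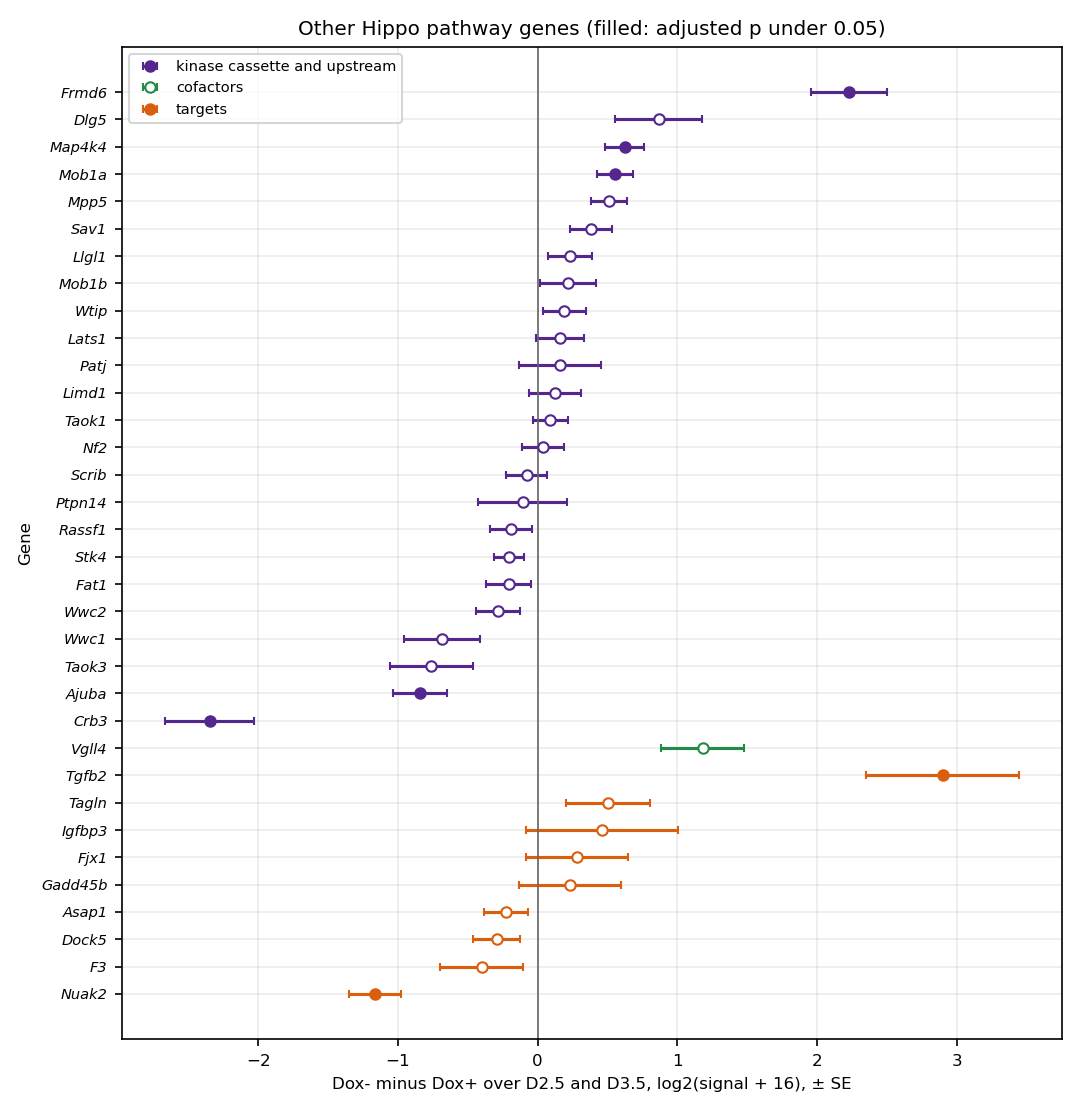
Log2 difference of Dox- minus Dox+ cells on D2.5 and D3.5 (± SE, limma) for the tested genes of the pathway lists; filled symbols have an adjusted p under 0.05. Frmd6 at 2.23 and Tgfb2 at 2.90 lie furthest up and Crb3 at -2.35 furthest down.

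The genes whose course was most like that of each gene were found by correlation over the 9 arrays, which share their scaling and the same few cell samples; this is a description. For Amot these were Cdk14, a cyclin-dependent kinase (r = 0.998), Dnajc10 (0.992) and Hmga2, a chromatin protein of embryonic cells (0.991). The correlation compares the shape of a course and not the size of its change. From D0.5 to D3.5 in Dox- cells Dnajc10 went from 289 to 536, and Amot from 41.5 to 4226. Hmga2 had signals of 91.3, 523, 1527 and 2448 in Dox- cells, against 105, 209, 355 and 760 in Dox+ cells. For Amotl1 they were Cd24a (0.997), Rnf217 and Rnpepl1, for Amotl2 Slc39a8 (0.991), Dsel and Srsf9, and for Wwtr1 Nckap1 (0.993), Tcn2 and Dzip1l. For Tead1 they were Uggt1 (0.979), Fndc3b and Abhd2, and for Tead2 Sgpl1 (0.985), Fam199x and Fndc3c1. For Lats2 they were Ndfip2 (0.975), Kif7 and Zfp362, and for Ccn1 Sem1 (0.982), Zfp354c and Epm2aip1, the values in parentheses being the highest r of each. For Ccn2 the nearest were Slc6a15 (0.986), Bex1 (0.980) and Ocln, which encodes the tight junction protein occludin (0.980). Ocln read 38.3, 165, 56.5 and 32.5 in Dox- cells, against 34.8, 80.5, 166 and 144 in Dox+ cells, the course of Ccn2. Yap1 was left out because its span was under 1. Among the 10 genes, Amotl1 and Wwtr1 were alike (r = 0.96), and Tead1 and Ccn2 ran against each other (r = -0.75).

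Summed signals of markers of other cell types differed between the media from D1.5. The summed signal of 8 trophoblast markers was 158, 444, 2758 and 4418 in Dox- cells, against 147, 165, 360 and 1577 in Dox+ cells. Such sums are weighted to their brightest probe sets and do not show a change of a whole list. In Dox- cells of D2.5 Eomes alone read 1808 and Krt8 529. On D3.5 Cdx2, a trophectoderm factor that is also made in mesoderm and gut, read 915 in Dox- cells and 42.0 in Dox+ cells, and Krt8, a simple epithelial keratin, read 2609 and 545. Hand1, Gata3 and Tfap2c were also higher in Dox- cells on D3.5, Eomes was lower, and Elf5 and Krt7 were under 50 on all arrays. The sum of 8 extraembryonic endoderm markers was 212, 676, 1215 and 1487 in Dox- cells, against 222, 265, 299 and 439 in Dox+ cells. On D3.5 Gata6 read 335 in Dox- cells and 58.6 in Dox+ cells, Sox17 read 85.2 and 14.2, and Col4a1 read 801 and 225, while Gata4 was at most 30.4 on any array. Foxa2 was lower in Dox- cells on D3.5, at 11.5 against 78.6 in Dox+ cells. The sum of 6 nascent mesoderm markers was 122, 263, 5460 and 2867 in Dox- cells, against 103, 94.1, 91.3 and 1628 in Dox+ cells; Eomes counts in this list and in that of trophoblast. From D1.5 all 3 sums exceeded those of Dox+ cells on the same day, as Amot did. The 7 pluripotency markers summed to 12136, 6544, 7276 and 2536 in Dox- cells, against 11739.7, 8554, 7266 and 8476 in Dox+ cells. The sums were level on D2.5, but single genes differed in opposite directions. On that day Sox2 read 284 in Dox- cells and 1508 in Dox+ cells, Nanog 1324 and 826, and Tdgf1 3773 and 2702. The sum was lower in Dox- cells on D1.5 and D3.5, though Klf4 (139.6 against 34) and Esrrb (11.1 against 4.7) were higher on D3.5. Of 8 fibroblast markers, 4 stayed under 50 on all arrays. The sum of the 8 was 38.7, 121, 108 and 359 in Dox- cells, against 47.5, 168, 206 and 169.9 in Dox+ cells. That sum was higher in Dox- cells on D3.5 only, but single genes differed in opposite directions. On D3.5 Col1a1 read 156.7 in Dox- cells and 7.3 in Dox+ cells, and Col1a2 read 137.2 and 47.7. Dcn read 8.2 and 62.8, and Thy1 read 25.5 and 36.6. Col1a2 was also higher in Dox- cells on D2.5, at 76.3 against 38.3. The part of these cell types in the values of the 10 genes was not tested, and in bulk samples fewer cells of a type and less RNA per cell cannot be told apart.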

How the data were processed

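The deposited values are linear intensities, 1 per probe set and array. The submitters' processing notes name GCOS, the Affymetrix software; for its version and background step, nothing is given in the sources used here. With 2% of the 45101 probe sets trimmed at each end, all arrays had a mean of 100, so no further normalization was applied. The number of arrays limits the precision. The platform annotation gave the symbols, which were brought up to date by gene ID with RefSeq's GRCm38.p6 table, and 64 control probe sets were left out.

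The 8716 genes that reached a signal of 50 on 2 or more arrays were tested on log2(signal + 16) with limma 3.58.1 in R 4.3.3 (lmFit and eBayes with trend), over the 8 arrays of differentiating cells. The day was a block when media were compared over 4 days or on the last days, and the medium when days were. For the steady change with day there was no block: the terms were the medium, the day as a number and their product. The fits for the media, the last days and the days had 3 residual degrees of freedom, and that for the steady change had 4. For D2.5 with D3.5, the earlier pairs entered only the spread. Adjusted p-values are Benjamini-Hochberg over all 8716 genes, called at 5%. The fits were tested on simulated data.

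The members and lists were chosen with earlier results of these data known, and the comparison of the last days was first added after its values were seen. Named genes are the 10 genes, the 3 genes furthest each way on the last days and the called genes of each pathway list, and the 3 genes most like each of the 10 (none for Yap1). Alternatives were the pseudocount, the signal filter, quantile normalization, the second brightest probe set, leaving out each day and, over 4 days, no day block.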

Additional observations from a re-analysis of the deposited data

How the results depend on the processing

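The comparison of the last days called 626 genes, and 364 with the second brightest probe set of each gene; without 1 day at a time it called 228 to 791, lowest without D0.5. Of the 10 genes it called 3, and 1 with the second brightest probe set, where those of Amot and Tead1 were too dim to test, and 1 to 3 without 1 day at a time. Ccn2 kept its call under the pseudocounts, signal filters, quantile normalization and each day left out; it has 1 probe set, so the second brightest was no check of it. The comparison of D3.5 with D0.5 called 1917 genes, and 1251 with the second brightest probe set.

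Counts of genes at least 2-fold apart on a single day moved with the pseudocount. On D0.5 there were 10, against 77 with a pseudocount of 1, 1 with 64 and 6 with a signal minimum of 100. On D1.5 there were 240, against 425 with 1 and 82 with 64. With 64 there were 343 on D2.5 (main 685) and 414 on D3.5 (main 778), and of the 10 genes 1 instead of 2 on D1.5. With 1, of the 10 genes the count was 3 for D1.5, 3 for D2.5 and 4 for D3.5 (main 2, 2 and 3), as Lats2 passed on D1.5 (1.06) and D2.5 (1.20), and Ccn1 on D3.5 (-1.05).

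Signs turned only for differences that were not called. For the last days Amotl2 was at -0.00142 under quantile normalization. With its second brightest probe set Wwtr1 was at -0.0302 over 4 days, -0.118 on the last days and -0.0483 per day. Without 1 day at a time, the difference over 4 days ranged from -0.0571 to 0.284 for Amotl2, -0.0448 to 0.0956 for Wwtr1 and -0.167 to 0.650 for Ccn1. That of the last days ranged from -0.13 to 0.41 for Amotl1, -0.37 to 0.41 for Amotl2 and -0.999 to 0.912 for Ccn1. The change per day ranged from -0.0555 to 0.116 for Amotl1, -0.51 to 0.30 for Amotl2, -0.0910 to 0.0310 for Tead2, -0.0221 to 0.303 for Lats2 and -1.22 to 0.66 for Ccn1. The cause was not tested. The labels give no replicate numbers, so days paired the media; without the day as a block, limma called 0 genes over 4 days, as with it, and the adjusted p of Amot was 0.902 in place of 0.416. With 1 array for each group, differences between cultures were not measured.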
